A study of Mus musculus with 8 samples.

Results

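The genes described here encode the proteins of the cytosolic ribosome. They were taken from the deposited matrices by symbol: every row starting with Rpl or Rps followed by a digit, plus Rpsa, Rplp0, Rplp1 and Rplp2, leaving out 9 processed-pseudogene rows (-ps) and 10 Rps6k kinase rows. This gave 86 of 31053 genes, 52 with Rpl symbols (large subunit) and 34 with Rps symbols (small subunit). Of these, 85 had at least 1 unique molecular identifier (UMI) in the 7 distinct libraries, and Rpl10l had none. The rule also takes in Rps19bp1, which encodes a protein that binds Rps19 and is not itself a ribosomal protein. All 86 are protein coding in GENCODE release M21. No measured value entered the choice of members.

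The cells were single-cell suspensions of mouse cortex at 8 weeks, prepared after perfusion. Lama4-/- mice lack the laminin alpha 4 chain, and Tek-Cre:Lama5-/- mice lack the laminin alpha 5 chain in cells with Tek-Cre activity, which is known in endothelial cells and also in part of the blood lineage; both chains belong to the vascular basement membrane. Each knockout had its own wild-type (WT) group, 3 brains were pooled for a group, and each group has 2 samples. Both Lama4-/- samples hold identical matrices and were counted as 1 library, so comparisons with Lama4-/- carry no test. Library names such as WT 1 and WT 2 give only the sample number, and because libraries of a group come from 1 pool of mice, p-values measure the spread between libraries and not between mice. Strain, sex and the Cre status of the WT mice are not given in the sources used here.

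The matrices held 56961 barcodes, of which 47239 were kept, with 35479306 to 48314458 UMIs in a library. Any pair of libraries shared 6 to 27 barcodes. Cells were clustered without the ribosomal protein genes, and clusters were named from marker genes, for example Cldn5, Pecam1 and Flt1 for endothelial-like cells. The 2 experiments mostly fill different clusters of the same class, so levels are compared within an experiment unless stated. A cluster with endothelial markers led by Gkn3, Mgp, Fbln5 and Bmx stayed unnamed because its 10 leading genes held Stmn2, a neuroblast marker, and no listed endothelial marker; it made up 1.67% to 1.81% of kept cells in the libraries of the Lama4 experiment and 3.55% to 4.27% in those of the Lama5 experiment.

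A ribosome has a large subunit, which forms peptide bonds, and a small subunit, which decodes the mRNA, and nearly every ribosomal protein is present once in each ribosome. The acidic proteins Rplp1 and Rplp2 form with Rplp0 the stalk that recruits elongation factors, and Rpsa, on the small subunit, was first described as a laminin receptor. Ribosomal protein mRNAs are among the most abundant of a cell, are short, and typically start with a C followed by a run of pyrimidines, the terminal oligopyrimidine tract through which their translation responds to mTORC1.

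Several sequences help to read the values. Rps27 (chr3:90212522-90213651, minus strand, GRCm38) and Rps27rt (chr9:114982366-114982739, minus strand) have coding sequences of 252 bases with 0 differences between them, so a read from the coding part cannot be assigned to 1 of the 2 genes. The coding sequence, without its stop codon, is printed once because both genes hold it:

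Rps27 and Rps27rt: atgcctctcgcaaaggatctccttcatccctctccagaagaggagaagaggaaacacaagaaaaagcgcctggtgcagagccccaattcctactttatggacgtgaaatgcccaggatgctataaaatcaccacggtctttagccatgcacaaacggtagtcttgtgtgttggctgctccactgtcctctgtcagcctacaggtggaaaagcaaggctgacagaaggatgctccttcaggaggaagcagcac

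The shortest members recur below among those lowest in the Lama4-/- library. Rpl41 (chr10:128548114-128549305) has 75 coding bases and Rps29 (chr12:69157722-69159186) has 168, both on the minus strand, against 1209 for Rpl3 (chr15:80077791-80091868), also on the minus strand. The sequence of Rpl41 is printed as the shortest:

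Rpl41: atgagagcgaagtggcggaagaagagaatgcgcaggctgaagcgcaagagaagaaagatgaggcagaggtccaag

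RefSeq start windows (GRCm38.p6) matched 66 members. A C followed by 4 or more C or T within 10 bases of an annotated start was found, on the strand of the gene, in 40 of them (60.6%), against 34.4% of the 27025 genes in the table. The windows of 30 bases below show the tract in capitals for 3 members, next to Rps28, whose window has none:

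Rps27: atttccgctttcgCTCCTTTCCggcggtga

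Rps27rt: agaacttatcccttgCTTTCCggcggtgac

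Rpl38: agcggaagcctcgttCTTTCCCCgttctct

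Rps28: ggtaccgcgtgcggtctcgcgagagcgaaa

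These windows are at chr3:90213634-90213663, chr9:114982725-114982754, chr11:114668565-114668594 and chr17:33824548-33824577, in that order; Rpl38 lies on the plus strand and the other 3 on the minus strand. Rps27 and Rps27rt differ before the C that opens the Rps27rt tract and match from there to the end of the Rps27 window. They share the coding part too.

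The share of UMIs from ribosomal protein genes differed several-fold between cell classes. Lymphocytes led: T or NK cell-like cells gave 26.2% to 36.7% over the 7 libraries (median 33.4%, 168 cells, 16 to 29 in a library), and B cell-like cells gave 19.0% to 28.8% (median 24.96%, 162 cells, 7 to 45 in a library). Astrocyte-like cells were at the other end with 2.71% to 3.56%. Endothelial-like cells, the most numerous class with 24756 cells, lay in the middle at 8.82% to 10.2%.

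Between those ends the classes ran in the order fibroblast-like, endothelial-like, neuroblast-like, perivascular macrophage-like, microglia-like, smooth muscle-like, pericyte-like and oligodendrocyte-like cells by their mean share. Neighbours in this order overlapped in the range of their libraries except at 3 places. The gaps fell between B cell-like and fibroblast-like cells, between smooth muscle-like cells (7.86% to 8.71%) and pericyte-like cells (4.39% to 5.91%), and between oligodendrocyte-like cells (4.19% to 4.94%) and astrocyte-like cells. The order pools both experiments and does not hold within each. Microglia-like cells had 6.48% to 6.55% in the Lama5 experiment, below smooth muscle-like cells, and 10.7% to 12.5% in the Lama4 experiment, above endothelial-like cells. Perivascular macrophage-like cells had 7.88% and 7.94% in the Lama5 WT libraries, below smooth muscle-like cells there, at 8.36% and 8.38%. The mural classes stood apart from each other, with smooth muscle-like cells above pericyte-like cells in all 7 libraries.

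**Figure D1:**
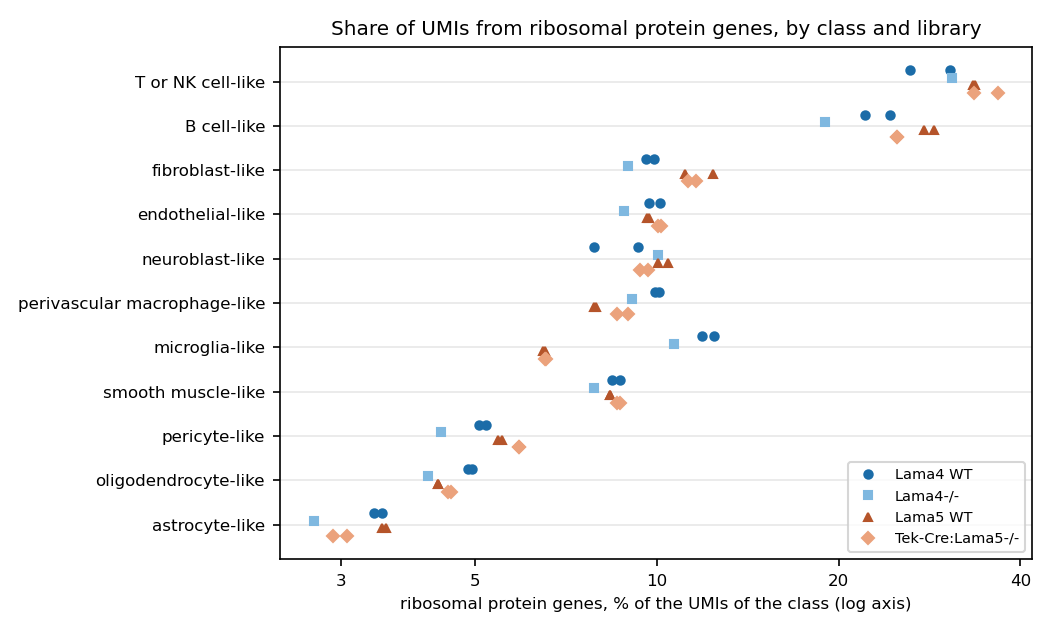
Share of UMIs from the 86 ribosomal protein genes (log axis, %) in 11 cell classes, with 1 point for each library and marker shapes for the 4 groups. T or NK cell-like and B cell-like cells lie above 19%, and astrocyte-like cells lie below 3.6% in every library.

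Most single members were highest in T or NK cell-like and lowest in astrocyte-like cells, with different spans, but Rps27l, Rps19bp1 and Rpl7l1 were highest in neuroblast-like and lowest in T or NK cell-like cells. Rpl12, a large subunit protein near the stalk base, had the widest span, with 4531 to 9029 CPM (UMI counts scaled to a fixed class total) in T or NK cell-like cells and 251 to 363 CPM in astrocyte-like cells, a ratio of means of 22.7. The next widest spans were those of Rps24 (ratio 16.5), Rpsa (16.0) and Rplp0 (15.9), each highest in T or NK cell-like and lowest in astrocyte-like cells. Large subunit genes supplied 55.1% to 55.7% of the ribosomal protein UMIs in endothelial-like cells, 51.7% to 53.5% in T or NK cell-like cells and 56.5% to 58.2% in astrocyte-like cells. The split between subunits thus varied far less between classes than the total did.

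The paralogs of ribosomal proteins, second copies with a restricted or variable expression, differed widely in level. Rpl3l, the striated muscle counterpart of Rpl3, had 62 UMIs in all libraries together, and Rpl39l, a copy known from testis, had 351. Rpl36al had 21259, Rpl7l1 had 16887, and Rps27l had 48812. Rpl22l1, the paralog of Rpl22, had 82695: its level was highest in T or NK cell-like cells (713 to 1092 CPM) and fibroblast-like cells (605 to 1024 CPM) and lowest in oligodendrocyte-like cells (122 to 155 CPM). Smooth muscle-like cells had 334 to 671 CPM and endothelial-like cells had 211 to 350 CPM, ranges that overlap narrowly.

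The Tek-Cre:Lama5-/- comparison asks what changes in cortex cells without endothelial laminin alpha 5. In endothelial-like cells ribosomal protein genes were higher as a group in both knockout libraries. Their share of UMIs was 9.62% and 9.71% in the WT libraries and 10.2% and 10.0% in the knockout libraries, a difference of 0.443 points (SD 0.0635 and 0.0914, n = 2 each), with no overlap between the groups. The exact two-sided permutation test gave p = 0.333, the smallest value that 2 libraries against 2 can give. Within the 4 endothelial-like clusters that had 50 or more cells in every library, the knockout libraries lay above both WT libraries in 3 and overlapped them in 1. The overlapping cluster, with shares of 10.5% to 10.8%, held 23.7% and 24.0% of the WT cells and 28.9% and 31.9% of the knockout cells. Another, at 9.31% and 9.39% in WT and 9.82% and 9.81% in knockout, held 35.7% and 36.2% of WT and 30.3% and 29.1% of knockout cells. The part of this spread in the class difference was not tested.

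Gene by gene, edgeR's quasi-likelihood test with Benjamini-Hochberg adjustment over all genes called 74 of 84 tested members higher in endothelial-like cells and 0 lower, where 10.7% of all 12948 tested genes were called higher and 8.57% lower. At an unadjusted p under 0.05, 76 members were higher and 0 lower, with no share of all genes given at that threshold. DESeq2 called 70 higher and 0 lower. The median log2 fold change of the members was 0.145 against -0.00 for all genes. The shift is small and shared: members ranged from 0.00 to 0.46, and 84 of 84 were above 0. With library totals in place of trimmed-mean (TMM) scaling, 44 were called higher and 2 lower, the members' median was 0.066 and that of all genes -0.079.

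A pair of rRNA-like loci and the depth of the cells moved with this comparison. Gm42418 and AY036118, loci that overlap ribosomal RNA repeats, took 4.12% to 4.23% of endothelial-like UMIs in the WT libraries and 7.29% to 8.04% in the knockout libraries, and the median UMIs per cell were 3037 to 3186 in WT and 2503 to 2720.5 in knockout. With these loci and mitochondrial genes left out, 75 members were called higher, and among cells with 3000 to 6000 UMIs 63 were.

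Rps27rt changed most. It had 49.4 and 46.8 TMM-scaled CPM in the WT libraries and 64.6 and 68.3 in the knockout libraries. Both knockout libraries were above both WT libraries, a condition for ranking it here, with a log2 fold change of 0.46 (SE 0.049, adjusted p = 9.77e-12). Its reads are not its own with certainty: of the last 400 bases of its transcript, 91.1% of 50-base stretches also occur in other genes, Rps27 first among them. Rps27 itself had 1143 and 1148 CPM in WT and 1204 and 1181 in knockout, a log2 fold change of 0.06 (adjusted p = 0.0154) that changed sign to -0.02 with library totals and was not called without WT library 1, WT library 2 or knockout library 1 (0.05, 0.06 and 0.04).

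Several of the next largest rises were those of small subunit proteins. Rps14, which lines the mRNA exit, had 2493 and 2525 CPM in WT and 2928 and 2948 in knockout (log2 fold change 0.23, SE 0.016, adjusted p = 7.64e-19). Rps23, a protein of the decoding centre, went from 1850 and 1846 to 2164 and 2155 CPM (0.22), and Rps2, at the mRNA entry, from 1008 and 1001 to 1176 and 1160 CPM (0.22). Knockout and WT libraries without overlap were a condition for naming these 3 genes, so their separation adds no evidence. Rps28 (0.21), the large subunit paralog Rpl22l1 (0.23) and Rpl36al (0.20) were also among the members with the largest rise; Rpl36al lost its call with DESeq2, without knockout library 2 and among cells with 3000 to 6000 UMIs.

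The stalk proteins rose by similar amounts, with log2 fold changes of 0.20 for Rplp0, 0.18 for Rplp1 and 0.18 for Rplp2. Rpsa was lower in size, with 840 and 846 CPM in WT and 902 and 891 in knockout (0.09, adjusted p = 2.25e-04), and it was not called with library totals or among cells with 3000 to 6000 UMIs. Of the paralog pairs, Rpl22 had a log2 fold change of 0.12, Rpl36a of 0.08 and Rpl39 of 0.09. Rpl7 rose by 0.18 while Rpl7l1, a paralog with a role in ribosome assembly, had 52.6 and 55.5 CPM in WT and 53.2 and 55.6 in knockout (0.01, adjusted p = 0.935), and its sign turned in 7 of the alternatives.

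The 10 tested members that did not pass were Rpl10a, Rpl29, Rpl35, Rpl38, Rpl39l, Rpl7l1, Rps19bp1, Rps26, Rps27l and Rps29. Among them Rps29 had 1733 and 1769 CPM in WT and 1769 and 1756 in knockout, so its groups overlapped (0.01, adjusted p = 0.787). Rpl38 had 1143 and 1160 CPM in WT and 1189 and 1188 in knockout, without overlap (0.05, adjusted p = 0.0701). Rps27l, a p53 target and paralog of Rps27, had a log2 fold change of 0.02.

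**Figure D2:**
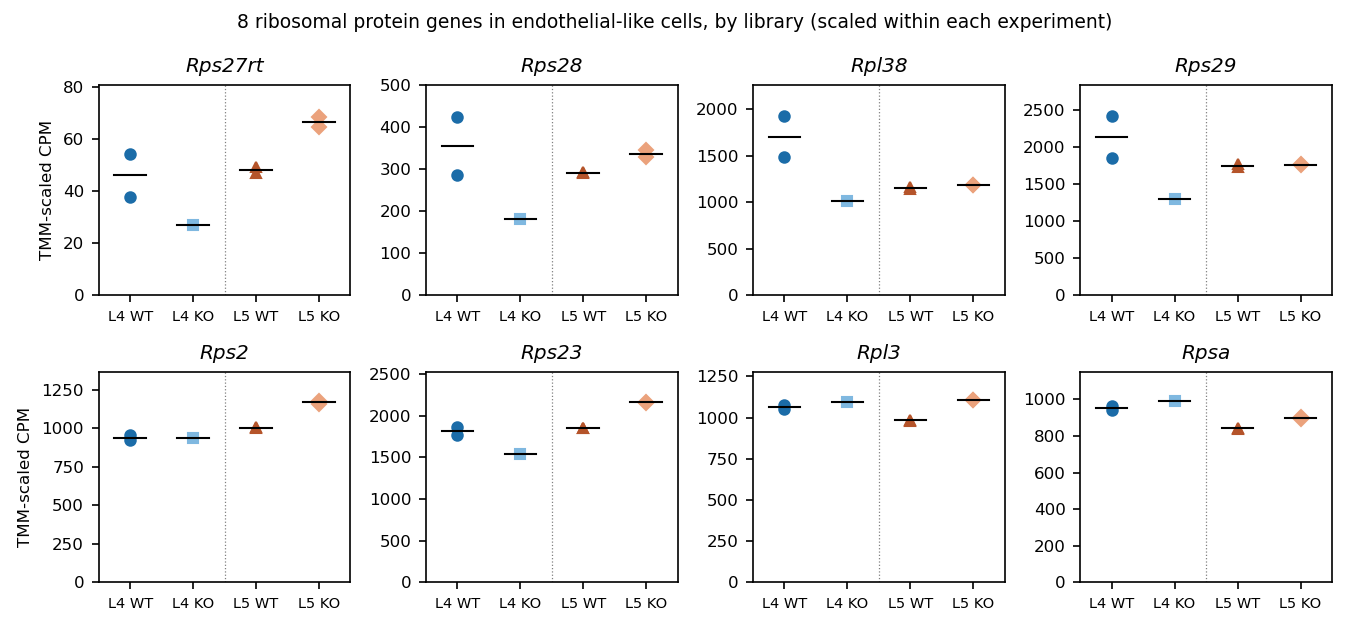
Level of 8 ribosomal protein genes in endothelial-like cells in TMM-scaled CPM, scaled within each experiment, with 1 point for each library and a line at the group mean. Rps27rt is 64.6 and 68.3 in the Lama5 knockout libraries against 49.4 and 46.8 in WT, and Rps28, Rpl38 and Rps29 are lowest in the Lama4-/- library.

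Other genes of the translation machinery, from lists of known function, moved less evenly. Of 10 tested further transcripts of the ribosome or with a terminal oligopyrimidine tract, 8 were called higher and 0 lower in endothelial-like cells, with a median log2 fold change of 0.181. They included Tpt1 (0.22), an abundant growth-related protein; Npm1 (0.23), a nucleolar chaperone, and the RNA-binding protein Hnrnpa1 (0.29) were also among them. Of 6 elongation factors 4 were higher, among them Eef1b2 (0.18) and Eef1a1 (0.12), and of 23 initiation factors and poly(A)-binding genes 11 were, led by Eif5 (0.31) and Eif4a1 (0.28); 0 of these 29 genes were called lower. These counts stand beside the 10.7% of all genes called higher and 8.57% called lower in this class, as do those that follow.

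Ribosome biogenesis factors were called higher in 4 of 28 cases and lower in 0, among them Nop58 (0.38) and Ncl, nucleolin (0.28), a share near that of all genes. Among 17 regulators of the ribosome through mTORC1 or Myc, 2 were higher and 4 lower. Sesn2 rose (0.37), and Eif4ebp1 (-0.41), Mxd4 (-0.41) and Ddit4 (-0.25) fell. Of 77 tested mitochondrial ribosomal proteins, which serve a separate ribosome encoded by other genes, 1 was higher and 4 lower, with a median of -0.01. In the integrated stress response list 5 of 12 were higher, among them Atf4 (0.24) and the chaperone Hspa5 (0.32), and 1 lower. Of 11 p53 targets 2 were higher, among them Mdm2 (0.28), and 4 lower, among them Btg2 (-0.37). Genes induced by tissue dissociation were higher in 3 of 12 cases and lower in 8, with Hspa1b at -0.55; their part in the ribosomal protein result was not tested.

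The comparison was repeated in 7 other classes. In oligodendrocyte-like cells 54 of 83 members were called higher and 0 lower, where 5.56% of all genes were higher and 5.03% lower, with a median log2 fold change of 0.117. Rps27rt (0.49), Rps20 (0.24) and Rpl13 (0.23) changed most there. DESeq2 called 33, library totals gave 23 higher and 1 lower, and among cells with 3000 to 6000 UMIs 4 were called. Knockout and WT cells of this class were also spread differently over its clusters: 43.7% and 50.6% of knockout cells were in a second cluster, which held less than 15% of the WT cells. Within these clusters no knockout library lay above both WT libraries in summed share. In the first cluster it was 4.26% and 4.27% in WT and 4.27% and 4.18% in knockout, and in the second cluster 5.44% and 5.35% in WT and 5.22% and 5.09% in knockout, below both WT libraries.

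In smooth muscle-like cells 36 of 83 members were higher and 0 lower, where 4.61% of all genes were higher and 1.5% lower, with a median of 0.131. Rps27rt had 29.4 and 40.4 CPM in WT and 56.7 and 57.3 in knockout (log2 fold change 0.71, SE 0.16, adjusted p = 0.00406), and Rps2 (0.32) and Rpl23a (0.29) came next. The count was 0 without either knockout library in turn, 19 or 20 without either WT library, 6 with library totals, 16 with DESeq2 and 2 without the filter on low counts.

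In microglia-like cells 28 of 83 were higher and 0 lower, where 9.31% of all genes were higher and 5.76% lower, with a median of 0.093. Rps2 had 785 and 779 CPM in WT and 962 and 976 in knockout (0.31, adjusted p = 3.79e-09), followed by Rpl13a (0.27) and Rplp0 (0.25). The summed share did not separate the groups there, at 6.48% and 6.52% in WT and 6.55% and 6.52% in knockout. In the largest microglia-like cluster of this experiment it overlapped too, at 6.67% and 6.69% in WT and 6.68% and 6.61% in knockout. In a smaller cluster both knockout libraries lay above both WT libraries, at 2.54% and 3.39% in WT and 4.53% and 5.44% in knockout. DESeq2 called 9, leaving out a library left 9 to 18, library totals gave 3 higher and 6 lower, and a stricter cell filter gave 8 higher and 3 lower. Genes induced by tissue dissociation were lower in 9 of 12 cases and higher in 1 in this class, with a median of -0.35; their part in the result was not tested.

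In perivascular macrophage-like cells 2 of 81 members, Rps20 (0.48) and Rps23 (0.45), were higher and 0 lower, where 0.887% of all genes were higher and 0.493% lower. DESeq2 called 0. At an unadjusted p under 0.05, 24 members were higher, with no share of all genes given at that threshold. Rps20 had 1192 and 1257 CPM in WT and 1569 and 1848 in knockout, without overlap; the call of at least 1 of the 2 genes was lost without each library in turn, and the count was 0 or 1. The share was 7.88% and 7.94% in WT and 8.97% and 8.58% in knockout. Dissociation genes were lower in 6 of 12 cases and higher in 0 here (median -0.39), and their part was not tested either. Pericyte-like cells had 0 of 83 called by edgeR and 0 by DESeq2, where edgeR called 0.177% of all genes higher and 0.0484% lower. At an unadjusted p under 0.05, for which no share of all genes is given, 24 members were higher. The members' median was 0.152. The summed share in pericyte-like cells was 5.46% and 5.55% in WT and 5.91% and 5.91% in knockout, without overlap.

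Astrocyte-like and neuroblast-like cells pointed the other way. In astrocyte-like cells edgeR called 4 of 83 members lower and 0 higher, where 1.12% of all genes were lower and 0.757% higher. DESeq2 called 0. At an unadjusted p under 0.05, 32 members were lower and 0 higher, with no share of all genes given at that threshold. Rpl3 had 508 and 530 CPM in WT and 384 and 373 in knockout (log2 fold change -0.46, SE 0.12, adjusted p = 0.0246), and Rps29 (-0.43) and Rpl23 (-0.42) were near it. The median was -0.216, but 0.002 with doublets kept and 0.123 among cells with 3000 to 6000 UMIs, and the count was 0 without either WT library and 1 without knockout library 1. A cluster of astrocyte-like cells with few UMIs held 75.4% and 66.8% of the class in knockout and 52.2% and 51.9% in WT, and the class had a median of 1129 to 1397 UMIs in knockout against 2098 to 2373 in WT. Within that cluster the shares overlapped, at 1.88% and 1.96% in WT and 1.93% and 1.91% in knockout. In the next largest astrocyte-like cluster the share was 2.77% and 2.70% in WT and 2.91% in the 1 knockout library with 50 or more cells there. In neuroblast-like cells 0 of 83 were called by either tool, where edgeR called 0.172% of all genes higher and 0.0736% lower. The members' median was -0.103. At an unadjusted p under 0.05, 0 were higher and 10 lower, again with no share of all genes given.

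**Figure D3:**
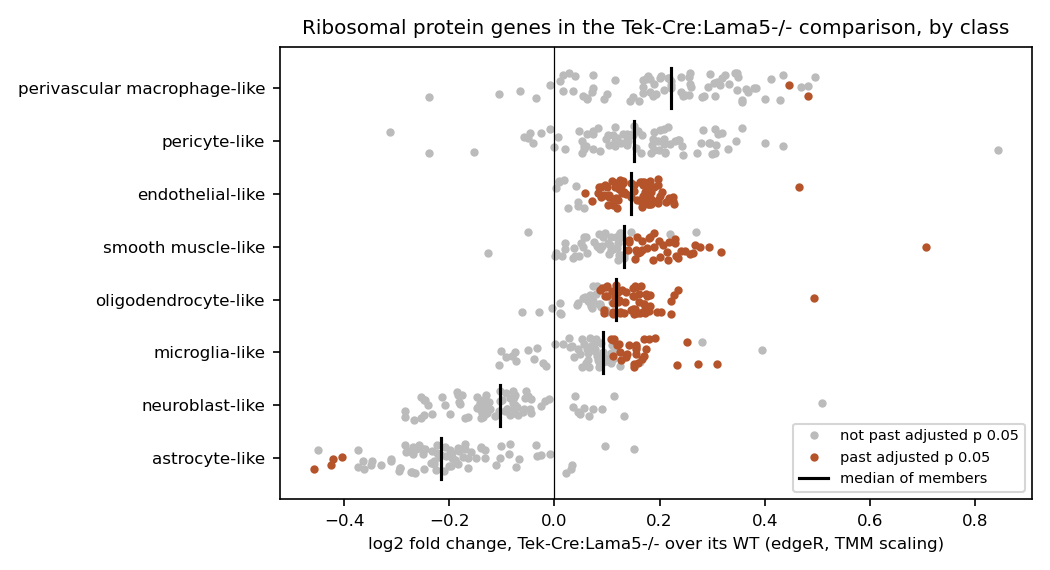
Log2 fold change of each tested ribosomal protein gene (x axis) in Tek-Cre:Lama5-/- over its WT in 8 cell classes, with called genes in colour and a line at the median. The median is above 0 in 6 classes, from 0.093 in microglia-like to 0.222 in perivascular macrophage-like cells, and below 0 in neuroblast-like and astrocyte-like cells.

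The difference between classes was itself tested, as the knockout effect in endothelial-like cells minus that in another class. Against astrocyte-like cells 52 of 84 members had a higher effect in endothelial-like cells and 0 a lower one, where 1.78% of 13586 genes were called in either direction; Rpl3 (0.72) and Rps9 (0.67) led. On the astrocyte-like side the summed share of no knockout library lay below both WT libraries in the cluster with few UMIs. In the next largest cluster only knockout library 2 had enough cells for a share, and its share lay above both WT libraries. The members' median in astrocyte-like cells was 0.123 among cells with 3000 to 6000 UMIs. The interaction was not run within clusters or in that range. Against microglia-like cells 5 members did (Rps28, Rps4x, Rpl37a, Rpl39 and Rplp1; 5.93% of all genes called). Against oligodendrocyte-like cells it was 2 (Rpl10 and Rpl22l1; 3.3% of all genes), and against smooth muscle-like cells Rpl41 was lower in endothelial-like cells (-0.16; 1.14% of all genes). These 3 counts are near or under the share of all genes called. By edgeR, the tool run for this difference, 0 were called against pericyte-like, perivascular macrophage-like and neuroblast-like cells (0.0386%, 0.105% and 0.191% of all genes called). At an unadjusted p under 0.05 the members were 1 lower, 2 lower and 24 higher in that order, with no share of all genes given. Rps20 was the member called higher in the most classes, 5 of 8, and 20 members were called higher in at least 4. No share of all genes called in that many classes is given, so these counts are a description only.

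The Lama4-/- comparison has 1 knockout library and no test. In each of the 6 classes with 50 or more cells in each library, ribosomal protein genes took a lower share of UMIs in that library than in both WT libraries. Endothelial-like cells had 10.1% and 9.70% in WT and 8.82% in knockout, where the exact 95% binomial interval of the knockout share was 8.81% to 8.84%, an interval for counting error only. Microglia-like cells had 12.5% and 11.9% in WT and 10.7% in knockout, and astrocyte-like cells 3.40% and 3.51% in WT and 2.71% in knockout. The shares of the knockout library were lower than the mean of its WT by 8.29% of that mean in smooth muscle-like cells and by 21.7% in astrocyte-like cells, the ends of the range. The astrocyte-like cells were spread differently over clusters, with 62.1% of the knockout cells in 1 cluster that held 41.3% and 48.5% of the WT cells. In that cluster the share was 2.86% and 2.75% in WT and 2.46% in knockout, in another 3.41% and 2.61% in WT and 1.68% in knockout, and in the one with the highest share 5.75% and 7.30% in WT and 5.73% in knockout. All 5 endothelial-like clusters with enough cells showed the knockout library below both WT libraries. Microglia-like cells were also spread differently, with 15.2% of the knockout cells in a cluster that held 8.44% and 7.45% of the WT cells. In that cluster the share was 4.58% and 4.96% in WT and 5.63% in knockout, above both WT libraries. In the largest microglia-like cluster of this experiment the knockout library lay below both WT libraries. The part of this spread in the class difference was not tested.

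The difference was uneven between members. A member was counted past the fold when its log2 ratio to the WT mean, with a pseudocount of 0.5 CPM, was -0.3 or under, or 0.3 or over, and its level lay outside both WT libraries. In endothelial-like cells 31 of 84 members were past the fold downwards, where 7.71% of all 12877 genes were, and 0 upwards, where 7.94% were. A further measure that needs no size, below both WT libraries, held for 65 of 84 members and for 37.1% of all genes. The median log2 ratio of the members was -0.199 against 0.00 for all genes.

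Rps28, a small subunit protein at the mRNA exit, was lowest relative to WT, with 423 and 286 TMM-scaled CPM in WT and 181 in knockout (log2 ratio -0.97). Rps27rt had 54.3 and 37.9 CPM in WT and 27.0 in knockout (-0.76), and Rpl38 had 1923 and 1484 CPM in WT and 1011 in knockout (-0.75). Rps29, a zinc-binding protein of the small subunit, had 2420 and 1860 CPM in WT and 1293 in knockout (-0.73). In these 4 genes the WT libraries also differed, with WT 2 below WT 1 in each. Rps27 (-0.72) and Rpl37 (-0.72) followed.

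At the other end stood members with longer coding sequences. Rpl3 had 1050 and 1074 CPM in WT and 1095 in knockout (0.04), and Rplp0 had 954 and 980 CPM in WT and 967 in knockout (0.00). Rpsa (0.06), Rps4x (0.01), Rpl7 (0.02), Rpl10 (0.08) and Rps2 (-0.00) lay close to them. The stalk was split: Rplp2 was at -0.54 and Rplp1 at -0.34, both past the fold, beside 0.00 for Rplp0. Among paralogs, Rpl36a (-0.60) and Rpl36al (-0.59) were past the fold together, as were Rpl22 (-0.35) and Rpl22l1 (-0.30), while Rpl7l1 was at 0.12.

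Many of these members recurred in the other classes, which all come from the same single knockout library. Of 83 members that passed the filter in all 6 classes, 20 were past the fold downwards in all 6, where 0.84% of the 6670 genes that passed in all 6 were, and 48 lay below both WT libraries in all 6, where 2.91% of those genes did. Rps28 ranged from -1.35 to -0.87 over the classes, Rpl38 from -1.01 to -0.66, Rps27 from -0.95 to -0.66 and Rpl41 from -1.05 to -0.52. Counts of members past the fold downwards were 41 of 83 in astrocyte-like cells (17.9% of all genes), 29 of 84 in microglia-like cells (11.5%), 39 of 83 in pericyte-like cells (19.2%), 23 of 83 in perivascular macrophage-like cells (22.6%) and 24 of 83 in smooth muscle-like cells (16.7%). In each of these classes 0 members were past the fold upwards, where 13.9%, 11%, 17.9%, 21.2% and 13.9% of all genes were, in the same order. In perivascular macrophage-like cells the share past the fold is thus near that of all genes. Below both WT libraries lay 78 of 83 members in astrocyte-like (34.8% of all genes), 78 of 84 in microglia-like (38.4%), 67 of 83 in pericyte-like (35.0%), 49 of 83 in perivascular macrophage-like (35.7%) and 54 of 83 in smooth muscle-like cells (37.1%). Among microglia-like cells with 3000 to 6000 UMIs the count was 17 and the members' median -0.00, against -0.192 in all microglia-like cells. Of 12 tested genes induced by tissue dissociation, 10 were past the fold downwards in astrocyte-like cells, 8 in pericyte-like, 8 in perivascular macrophage-like, 3 in endothelial-like, 3 in smooth muscle-like and 1 in microglia-like cells. In smooth muscle-like cells 3 of the 12 lay below and 8 above both WT libraries. These counts were 6 and 5 in endothelial-like and 4 and 5 in microglia-like cells. The part of the dissociation genes was not tested.

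**Figure D4:**
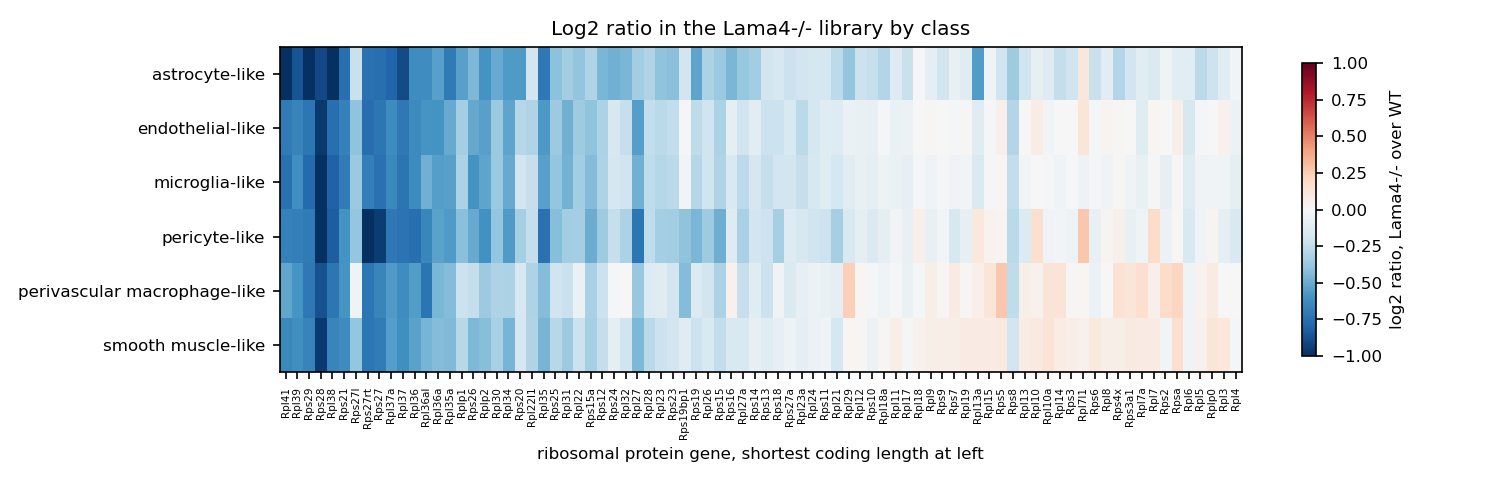
Log2 ratio of the Lama4-/- library to its WT mean for 82 of the 83 ribosomal protein genes that passed the filter in all 6 classes, ordered by coding length with the shortest at left; blue is lower in knockout, and ratios under -1 have the colour of -1. Rps28, Rpl38, Rps29 and Rpl41, toward the left, are lower in knockout in every class, and Rpl3, toward the right, is near 0 in endothelial-like cells.

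The members lowest in the Lama4-/- library relative to WT were short ones. Other gene lists in endothelial-like cells lay near 0, with median log2 ratios of -0.02 for elongation factors, -0.03 for initiation factors and 0.03 for mitochondrial ribosomal proteins. In endothelial-like cells the rank correlation across 84 members between the log2 ratio and coding length was 0.90, and it was 0.82 to 0.92 in the 6 classes; the genes share libraries and scaling, so this is a description. With the length of the representative transcript in place of coding length it was 0.70 (0.52 to 0.70 over the classes). Across 12780 other genes in endothelial-like cells the rank correlation with that transcript length was -0.02, and over the classes it was -0.07 to 0.03. By length of the representative transcript, 19 members under 500 bases had a median of -0.542, 24 from 500 to under 700 bases -0.264, 23 from 700 to under 1000 bases -0.016 and 16 from 1000 to under 2000 bases -0.035. Among genes outside the family the short ones were lower by less, with a rank correlation near 0 over all lengths: 194 genes under 500 bases had a median of -0.213, 354 from 500 to under 700 bases -0.048, and 668 from 700 to under 1000 bases 0.011.

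The WT libraries of that experiment held a smaller form of the gradient. Between WT 2 and WT 1 the rank correlation with coding length was 0.80 in endothelial-like cells, and members under 500 bases had a median log2 ratio of -0.161. In the Tek-Cre:Lama5-/- comparison the correlation was 0.07, with medians of 0.123, 0.165, 0.130 and 0.166 in the 4 length ranges in the same order. Median UMIs per endothelial-like cell were 5871.5 and 5645.5 in the WT libraries and 4750 in the Lama4-/- library. With 1 knockout library, the genotype cannot be told apart from the preparation of that library, and the part of transcript length in the ratios was not tested.

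**Figure D5:**
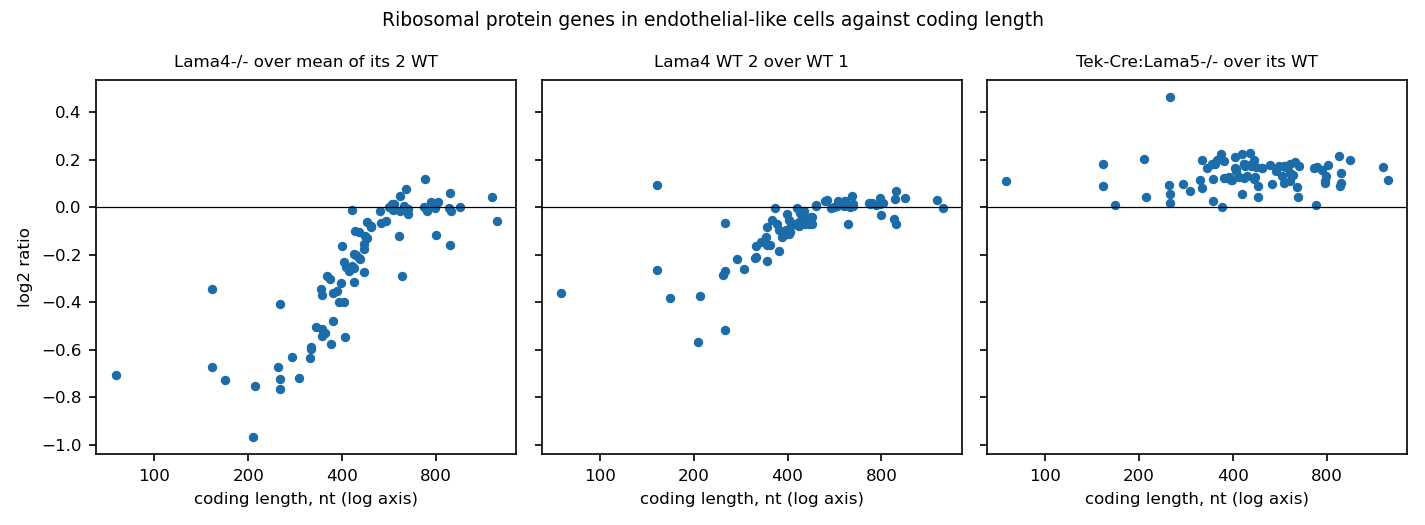
Log2 ratio (y axis) of ribosomal protein genes in endothelial-like cells against coding length in bases (log axis) for the Lama4-/- library over its WT mean, WT 2 over WT 1 of the same experiment, and Tek-Cre:Lama5-/- over its WT. Short genes fall to -0.97 in the first panel and to -0.57 in the second, and the rank correlation in the third is 0.07.

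A pair of further properties were set beside the values. Members with a pyrimidine tract at a start window had a median Lama4-/- log2 ratio of -0.253 (38 members) and those without one -0.083 (26 members, Rps28 among them); for Tek-Cre:Lama5-/- the medians were 0.148 and 0.128. Sequence shared with other genes touches many members: for 52 of 86 at least 50% of the 50-base stretches in the last 400 bases also occur in another gene's transcripts, mostly pseudogenes, and for 16 none do. Of the 52, 47 were called higher in Tek-Cre:Lama5-/- endothelial-like cells (median 0.148) and 22 were past the fold downwards in Lama4-/- (median -0.234). Of the 14 tested members with none, 11 were called higher (median 0.138) and 2 were past the fold downwards in Lama4-/- (median -0.067). Of all genes in endothelial-like cells, 10.7% were called higher in Tek-Cre:Lama5-/- and 7.71% were past the fold downwards in Lama4-/-.

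The WT groups themselves differed most in microglia-like cells. There 80 of 83 members were called lower in the Lama5 WT than in the Lama4 WT and 2 higher, where 25.7% of all genes were lower and 27.3% higher, with a median log2 fold change of -1.05. Rpl35 had 896 and 824 CPM in the Lama4 WT and 213 and 200 in the Lama5 WT (-2.06), and Rpl38 (-1.88) and Rps21 (-1.82) were next. Rpl22l1 went the other way, with 211 and 210 CPM against 250 and 274 (0.31). Different clusters held the class, 1 with 90.2% and 91.3% of the microglia-like cells of the Lama4 WT and another with 82.9% and 81.5% of those of the Lama5 WT, so experiment and cell state cannot be told apart.

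In endothelial-like cells of the WT groups, 48 of 84 members were higher and 17 lower in the Lama5 WT, where 29.2% of all genes were higher and 27.2% lower. These calls rest on TMM-scaled levels. The summed share was not higher in the Lama5 WT, at 10.1% and 9.70% in the Lama4 WT and 9.62% and 9.71% in the Lama5 WT. Rpl31 (0.58) and Rpl23a (0.42) were among the higher ones, and Rpl35 (-0.69), Rpl27 (-0.43) and Rpl38 (-0.38) among the lower ones. Rpl35 and Rpl38 were thus lower in the Lama5 WT in both microglia-like and endothelial-like cells.

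The other WT comparisons gave fewer calls. In astrocyte-like cells 11 of 83 members were higher in the Lama5 WT and 9 lower (6.33% and 4.96% of all genes), and in pericyte-like cells 15 were higher and 1 lower (6.29% and 4.2%). In oligodendrocyte-like cells 1 was higher and 26 lower (7.56% and 6.6%), in perivascular macrophage-like cells 1 and 35 (6.73% and 4.18%), and in smooth muscle-like cells 5 and 36 (14.2% and 12.8%). The direction between the WT groups therefore differed by class. By TMM-scaled level, called members were mostly higher in the Lama5 WT in pericyte-like and endothelial-like cells. They were mostly lower there in the myeloid classes and in oligodendrocyte-like and smooth muscle-like cells.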

How the data were processed

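The deposited matrices give each gene's UMI count in each barcode, not normalized; Cell Ranger 3.1.0 is named in them, per the file headers, and per the submitters' processing notes the build was mm10 and Seurat 3.1 was used. The annotation is not given in the sources used here. Cells with 500 or more genes and under 15% mitochondrial UMIs were kept (4352 and then 2355 barcodes removed), 3015 doublets were removed by a score against simulated doublets, and cells were clustered (2000 variable genes without members, 30 components, 15 neighbours, igraph 0.11.9). Counts were summed by class and library where all libraries had 50 cells, and tested with edgeR 4.0.16 (TMM, quasi-likelihood, filterByExpr); DESeq2 1.42.0 was an alternative. The scripts were tested on simulated data. Same-numbered libraries did not deviate together (correlations -0.024 to 0.019).

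Lengths, positions and shared stretches come from GENCODE M21, which holds 99.6% of the gene IDs. The members, gene lists and tests were chosen with earlier results of these data known. Named members were those with the largest called changes in endothelial-like cells at 20 CPM or more, paralog families, the stalk proteins and Rpsa, the 3 largest called changes in each other class, and the widest spans between classes. For the largest called changes in endothelial-like cells, knockout and WT libraries also had to lie apart without overlap. Names beyond these were chosen after their values were seen. The alternatives were other scalings and tools, filters on cells and counts, each library left out, and a replicate block. Shares of all genes called are given for the main settings only, not for the alternatives. Some genes and a sequence are not reported here.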

Additional observations from a re-analysis of the deposited data

Results flagged for a closer look

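The share of UMIs from ribosomal protein genes went in opposite directions in the knockouts in 4 classes, with every knockout library outside its WT libraries; the difference between the experiments was not tested. It was -1.09 points in Lama4-/- and 0.443 in Tek-Cre:Lama5-/- endothelial-like cells, -0.76 and 0.404 in pericyte-like cells, -0.901 and 0.863 in perivascular macrophage-like cells, and -0.711 and 0.265 in smooth muscle-like cells.

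In endothelial-like cells 62 members lay on opposite sides of their WT libraries in the 2 experiments, again not tested; all 62 were above WT in Tek-Cre:Lama5-/- and below it in Lama4-/-. Of the 12323 genes tested in both experiments, 23.0% lay on opposite sides in either direction and 11.3% in this one. Among the named ones the log2 ratio in Lama4-/- and the log2 fold change in Tek-Cre:Lama5-/- were -0.97 and 0.21 for Rps28, -0.76 and 0.46 for Rps27rt, and -0.75 and 0.05 for Rpl38. They were -0.72 and 0.06 for Rps27, -0.72 and 0.07 for Rpl37, and -0.59 and 0.20 for Rpl36al. For Rpl22l1 they were -0.30 and 0.23, for Rps23 -0.25 and 0.22, and for Rps14 -0.10 and 0.23.

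The Tek-Cre:Lama5-/- effect differed between endothelial-like and other cells by the edgeR interaction test for 52 members against astrocyte-like cells, 5 against microglia-like, 2 against oligodendrocyte-like and 1 against smooth muscle-like cells. Of all genes 1.78%, 5.93%, 3.3% and 1.14% were called in these comparisons, in the same order, so the counts of 5, 2 and 1 are near or under the background. In the largest astrocyte-like cluster the summed share of no knockout library lay below both WT libraries. In the next largest only knockout library 2 had enough cells for a share, and its share lay above both WT libraries. The members' median in astrocyte-like cells was 0.123 among cells with 3000 to 6000 UMIs.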

How the results depend on the processing

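In endothelial-like cells the Tek-Cre:Lama5-/- count of 74 called members was 72 without any 1 library, 63 to 75 under the other alternatives, and 46 with library totals. In the other classes of that comparison (edgeR counts of 4, 28, 54, 0, 2 and 36 in astrocyte-like, microglia-like, oligodendrocyte-like, pericyte-like, perivascular macrophage-like and smooth muscle-like cells), DESeq2 gave 0 in astrocyte-like, 9 in microglia-like, 33 in oligodendrocyte-like, 0 in perivascular macrophage-like and 16 in smooth muscle-like cells. Library totals gave 9 in microglia-like, 24 in oligodendrocyte-like, 0 in perivascular macrophage-like and 6 in smooth muscle-like cells. The stricter cell filter gave 11 in microglia-like, 1 in pericyte-like and 0 in perivascular macrophage-like cells, cells with 3000 to 6000 UMIs gave 0 in astrocyte-like, 12 in microglia-like, 4 in oligodendrocyte-like and 23 in smooth muscle-like cells, kept doublets gave 0 in astrocyte-like cells, and no low-count filter gave 2 in smooth muscle-like cells. Leaving out a library gave 0 to 4 in astrocyte-like, 9 to 18 in microglia-like, 0 to 1 in pericyte-like, 0 to 1 in perivascular macrophage-like and 0 to 20 in smooth muscle-like cells. The numbers do not pair the libraries; a replicate block gave 75 in endothelial-like and 30 in smooth muscle-like cells and moved no count by over 1.5 times.

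Between the WT groups DESeq2 called 8 in astrocyte-like (edgeR 20), 6 in pericyte-like (16), 16 in perivascular macrophage-like (36) and 20 in smooth muscle-like cells (41). Leaving out a library gave 10 to 30, 9 to 30, 20 to 36 and 25 to 42 in those classes, and 9 to 33 in oligodendrocyte-like cells. In Lama4-/- the count past the fold in microglia-like cells was 17 among cells with 3000 to 6000 UMIs.

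The Tek-Cre:Lama5-/- share difference, in points, reversed to 0.25 in astrocyte-like cells with 3000 to 6000 UMIs and to 0.039 in neuroblast-like cells with the stricter filter; the cause was not tested. Without rRNA-like and mitochondrial genes it was 0.898 in endothelial-like, 0.167 in microglia-like, 0.385 in oligodendrocyte-like, 0.642 in pericyte-like, 1.3 in perivascular macrophage-like and 0.599 in smooth muscle-like cells. As a mean over cells it was -0.311 in astrocyte-like, 0.481 in microglia-like, 0.246 in oligodendrocyte-like, 0.466 in pericyte-like and 0.388 in smooth muscle-like cells. Kept doublets gave -0.205 in astrocyte-like and 0.333 in smooth muscle-like cells, and the stricter filter -0.111, -0.161 and 0.348 in astrocyte-like, microglia-like and pericyte-like cells. Cells with 3000 to 6000 UMIs gave 0.275 in endothelial-like, -0.039 in microglia-like, -2.89 in neuroblast-like, 0.026 in oligodendrocyte-like, 0.561 in pericyte-like, 1.38 in perivascular macrophage-like and 0.153 in smooth muscle-like cells. In Lama4-/- the astrocyte-like difference of -0.749 was -0.834 without those genes, -0.593 as a mean over cells, -0.611 with doublets, -0.836 with the stricter filter, -0.632 in the UMI range and -0.615 at resolution 2. The UMI range gave -0.464 in microglia-like, -1.08 in perivascular macrophage-like and -0.475 in smooth muscle-like cells; a mean over cells gave -0.613 in pericyte-like and -1.22 in perivascular macrophage-like cells, and doublets gave -1.11 in the latter.

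Signs turned in endothelial-like Tek-Cre:Lama5-/- cells with library totals for Rpl37 (-0.0086), Rpl38 (-0.034), Rps27 (-0.021), Rps27l (-0.060), Rps29 (-0.070) and Rpl7l1 (-0.070), and with 3000 to 6000 UMIs for Rpl39l (-0.307), Rpl7l1 (-0.177) and Rps29 (-0.0091). The stricter filter turned Rps27l (-0.0083), Rps29 (-0.00065) and Rpl7l1 (-0.030), no low-count filter Rps29 (-0.0075) and Rpl7l1 (-0.0072), and kept doublets Rpl7l1 (-0.0013). Leaving out a library gave -0.0066 to 0.023 for Rps29 and -0.030 to 0.047 for Rpl7l1. With the arterial cluster added, an alternative chosen after seeing the data, 75 members were called. Counting limits the smaller classes: in perivascular macrophage-like cells Rps20 had 201 to 304 UMIs in a library.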
